A study of Mus musculus with 10 samples.

Results

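The nuclear-encoded respiratory chain genes are the genes for the subunits of the 5 enzyme complexes of mitochondrial oxidative phosphorylation that are transcribed in the nucleus. They were taken by gene symbol from the 20579 genes of the deposited table, as symbols that begin with Nduf and a subunit letter, Sdha to Sdhd, Uqcr, Cox4 to Cox8 and Atp5, leaving out assembly factors of the Ndufaf family and 8 names marked -ps. The rule used no measured value. It found 84 genes, which were assigned to complexes by the start of the symbol alone, pseudogenes included. That placed 40 genes under complex I, 4 under complex II, 8 under complex III, 15 under complex IV and 17 under complex V. Of these, 80 are annotated as protein coding, and Ndufb4c, Ndufs6b, Ndufa11b and Cox6c2 are annotated as processed pseudogenes. They lie on 19 chromosomes.

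RNA was sequenced from intestinal cells of mouse embryos late in gestation (E18.5) that carry green fluorescent protein driven by the Hopx promoter and were sorted for it. The p57KO group has 5 libraries from embryos that lack p57Kip2, the cyclin-dependent kinase inhibitor encoded by Cdkn1c, and the p57WT group has 5 from wild-type embryos. The strain label of both groups names C57BL6/J and 129S4, both groups carry the reporter, and the design text counts 5 intestines of each genotype. The labels do not say how the knockout allele was made. Each label also carries a number of unstated meaning: 607 for p57KO 1, p57KO 2 and p57WT 1, 608 for p57KO 3 to 5, and 740 for p57WT 2 to 5.

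Complex I (NADH dehydrogenase) and complex II (succinate dehydrogenase) feed electrons from NADH and succinate to ubiquinone, complex III passes them to cytochrome c, and complex IV (cytochrome c oxidase) hands them to oxygen. Complex V (ATP synthase) uses the proton gradient that complexes I, III and IV build. Several complex IV and complex V subunits exist as a broadly expressed form and a form restricted to some tissues or states, and in the intestine mitochondrial content is known to differ between stem cells, absorptive cells and muscle.

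Stretches of RefSeq promoters (GRCm38.p6) are shown for 4 genes on which the results turn, chosen after their fold changes were seen: Sdhd and Atp5g1, which were higher in p57KO, and Cox6b1 and Cox6b2, the alternative forms of a complex IV subunit, which differed in direction. Each stretch lies upstream of the annotated start of transcription, outside annotated exons, and is given 5′ to 3′ on the strand of the gene. Capitals mark matches to the motifs searched. The stretches are chr9:50603850-50603909 for Sdhd, chr11:96075671-96075790 for Atp5g1, chr7:30626152-30626271 for Cox6b1 and chr7:4753095-4753214 for Cox6b2, all on the minus strand.
Sdhd: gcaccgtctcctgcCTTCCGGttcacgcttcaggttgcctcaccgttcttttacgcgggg
Atp5g1: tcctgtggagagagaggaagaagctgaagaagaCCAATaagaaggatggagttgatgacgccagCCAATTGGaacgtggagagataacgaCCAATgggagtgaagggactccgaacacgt
Cox6b1: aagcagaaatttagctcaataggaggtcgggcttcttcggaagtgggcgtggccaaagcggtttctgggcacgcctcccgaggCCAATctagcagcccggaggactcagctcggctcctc
Cox6b2: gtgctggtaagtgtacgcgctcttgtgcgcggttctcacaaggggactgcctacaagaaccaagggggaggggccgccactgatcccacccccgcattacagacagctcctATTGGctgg
The Sdhd stretch holds the reverse complement of CCGGAAG, the core letters bound by GABPA, 46 bases before the start. Atp5g1 holds CCAAT on the forward strand 126, 95 and 69 bases before the start, and on the reverse strand 92 bases before it, where it overlaps the match at 95. Cox6b1 holds CCAAT 74 bases before the start and Cox6b2 holds it on the reverse strand 9 bases before the start. CCGGAAG is not in the printed Cox6b stretches, but the full promoter window of Cox6b1 searched next holds it outside the stretch printed. A stretch of 120 bases of Sdhb, also higher in p57KO, was taken out as well and is not printed. It held none of the motifs searched, though the full window of Sdhb holds CCGGAAG and CCAAT.

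Over the promoter windows of 250 bases before to 50 bases after the start, which matched 66 of the 84 genes, both strands were searched for 5 motifs. The NRF1 motif (GCGCA, any base, then GCGC) was found in 16 of 66 members (24.2%) and in 4.78% of all 27025 promoters. CCGGAAG was found in 16 of 66 (24.2%) against 9.12%. AAGATGGCG, bound by YY1, was found in 6 of 66 (9.09%) against 1.49%. CCAAT was found in 29 of 66 (43.9%) against 37.9%, and TATAAA in 6 of 66 (9.09%) against 14.2%. NRF1 and GABPA are known regulators of nuclear genes for mitochondrial proteins. A match is a stretch of letters, and no binding was measured here.

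Before the results, the libraries need describing, since they differ in more than genotype. Total counts ranged from 8037887 to 26809231. The share of counts on 3 ribosomal RNA features was at most 0.435% in p57KO 1 to 4 and in p57WT 2, and between 9.47% and 17.03% in p57KO 5 and the other p57WT libraries. This share and the label number both run largely with genotype. Cdkn1c ranged from 0.153 to 2.06 CPM (counts divided by library size, with trimmed mean of M values scaling, TMM) in p57KO and from 151 to 458 CPM in p57WT, and Hopx from 127 to 199 and from 60.4 to 78.1 CPM. The label calls the cells intestinal stem cells. All 18 epithelial markers were detected, with a summed level of 9241 to 17876 CPM in p57KO and 3181 to 7729 CPM in p57WT. All 12 smooth muscle markers were also detected, at 4776 to 32410 CPM in p57KO and 49402 to 98742 CPM in p57WT, so that smooth muscle markers exceeded epithelial ones in all p57WT libraries and in 3 of 5 p57KO libraries. Absorptive enterocyte markers summed to 3757 to 9303 CPM in p57KO and 550 to 1769 CPM in p57WT, and enteroendocrine markers to 7713 to 18797 and 195 to 1012 CPM. Goblet markers summed to 5173 to 8229 and 1088 to 2245 CPM, and fibroblast markers to 164 to 1429 and 2779 to 9932 CPM. Blood cell markers were higher in p57KO as well, with neutrophil sums (5 of 10 markers listed in the table) of 19.4 to 4844 CPM against 0.785 to 12.4 CPM, the highest in p57KO 2, macrophage sums of 175 to 2229 against 25.05 to 147 CPM, and erythroid sums of 103 to 1308 against 2.09 to 87.8 CPM. The part of these cell types in the results was not tested. In bulk RNA, fewer cells of a type and less RNA per cell cannot be told apart.

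As a group, the respiratory chain genes sat moderately higher in p57KO, with few single genes past the test. Of 84 members, 83 passed the filter on low counts. By edgeR's quasi-likelihood test with Benjamini-Hochberg adjustment over 16710 genes, 12 were called higher and 1 lower in p57KO, which is 15.7% of the members, while 36.5% of all genes tested were called. In the upward direction the members' share was 14.5% against a background of 19.3%, and in the downward direction 1.2% against 17.2%. Both shares were below the background in this fit. In the upward direction that depended on the tool: DESeq2 called 27 of 84 members higher (32.1%) and 1 lower (1.19%), against 20.9% and 17.5% of all genes, or 33.3% against 38.3% in either direction. The median log2 fold change of p57KO over p57WT was 0.43 over the members and 0.08 over all genes tested, and 74 of 83 members had a fold change above 0 against 53.1% of all genes. An unadjusted p below 0.05 in edgeR was found for 29 members (34.9%) and for 47.4% of all genes. A fitted change of 2-fold or more in either direction was found for 6 of 83, a count not made over all genes. The lower and upper quartiles of the log2 fold change were 0.24 and 0.62 over the members. Over all genes tested they were -0.70 and 0.74.

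All p57KO libraries lay to the same side of all p57WT libraries for 6 members that were higher in p57KO, namely Ndufb3, Uqcrb, Uqcrfs1, Cox7b, Atp5g1 and Atp5md, and for 1 that was lower, Cox6b2. This is 8.43% of the members, where 24.2% of all genes had such a separation (11.5% higher and 12.7% lower). Complex I had 4 of 40 tested members called higher (10%), with a median log2 fold change of 0.40. Complex II had 2 of 4 (50%, median 0.82) and complex III 2 of 8 (25%, median 0.55). Complex IV had 1 of 14 higher (7.14%) and 1 lower (median 0.34), and complex V 3 of 17 higher (17.6%, median 0.38). Over all genes tested, 19.3% were called higher and the median was 0.08. In the authors' deposited table, made with their own fit, 24 of 84 members were higher and 1 lower at an adjusted p below 0.05. That is 28.6% against 20.5% of all its genes in the upward direction, 1.19% against 17% downward and 29.8% against 37.5% in either.

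**Figure D1:**
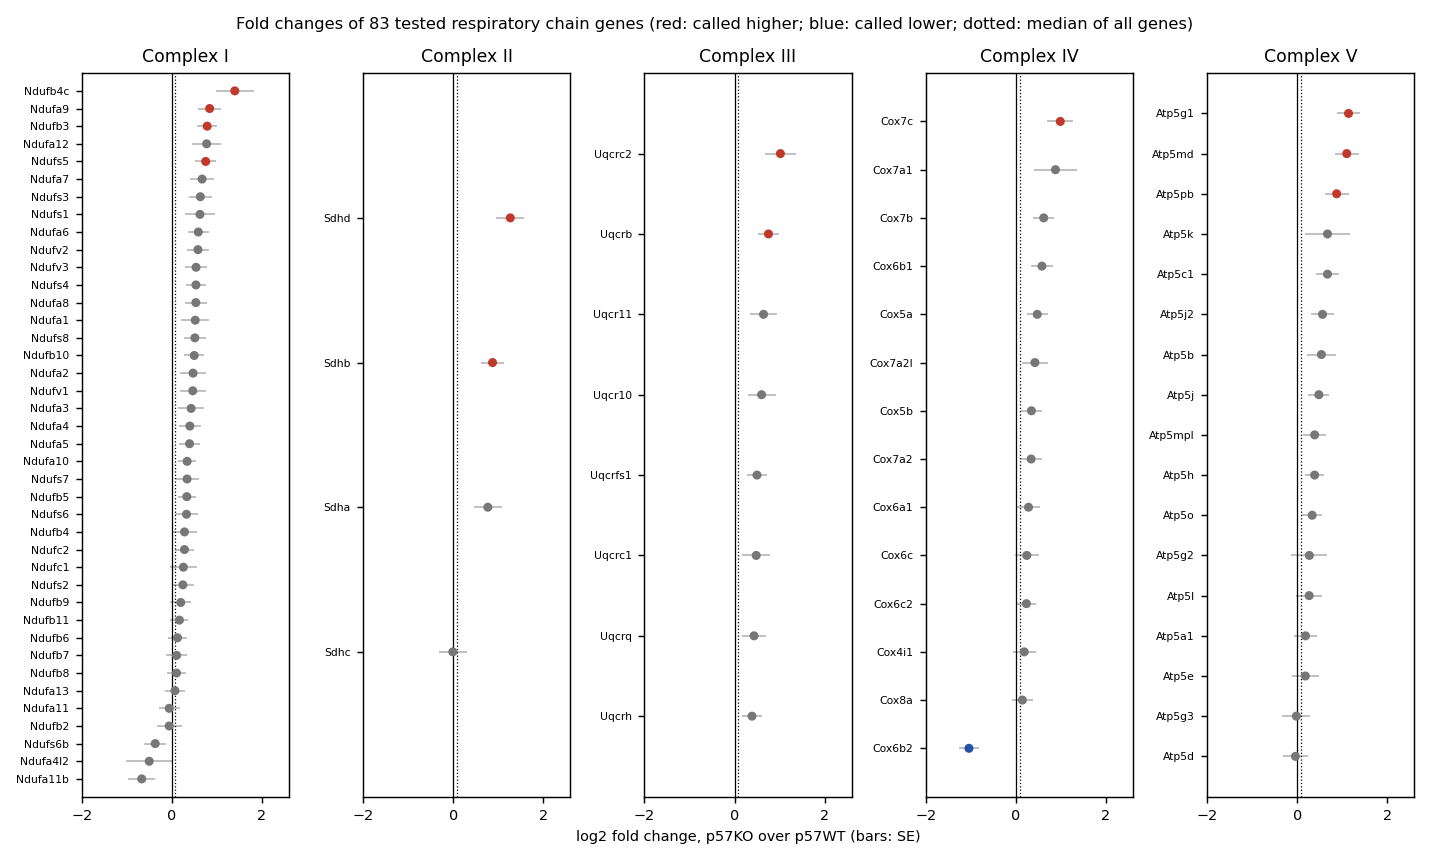
Log2 fold change of p57KO over p57WT (x axis) with its SE for the 83 tested members, by complex. Red points are the 12 members called higher, the blue point is Cox6b2, and the dotted line is the median of all genes, 0.08; most points lie to its right.

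The number of calls depended on single libraries and on what else was put in the model. Leaving out p57WT 4 left 4 members called higher (4.82%, against 13.9% of all genes), p57WT 3 left 5 (6.02% against 14.4%), p57WT 5 left 6 (7.23% against 14.8%) and p57KO 4 left 7 (8.43% against 15.4%). Leaving out p57KO 1 gave 19 (22.9% against 21.2%) and p57KO 5 gave 21 (25.3% against 21.1%), so the members' share passed the background in these fits. With the ribosomal RNA class of the library as a term, 1 member was higher (Atp5g1) and 1 lower (Cox6b2), or 1.2% in each direction against 7.22% and 10.48% of all genes. With the label number as a term edgeR called none, and 7 had an unadjusted p below 0.05. With libraries scaled to the epithelial markers the median of the members was -0.83 and that of all genes -1.16. Of 83 members, 0 were then called higher and 42 lower, where 3.11% and 56.3% of all genes were. The members' median exceeded that of all genes by 0.35 with TMM and by 0.33 under epithelial scaling. Rescaling a library shifts all its genes by nearly the same amount, so these values were bound to be close. The excess was 0.21 with the ribosomal RNA class as a term. It was 0.22 among the libraries with little ribosomal RNA, 4 of p57KO against 1 of p57WT. Among those with much of it, 1 against 4, the excess was 0.19. These subsets were chosen after the data were seen. Each leaves 1 library in a genotype, so calls within them are not counted.

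The members together took 3.56% to 4.79% of all counts in p57KO and 2.55% to 3.56% in p57WT. Without the ribosomal RNA features the ranges were 3.86% to 4.81% and 3.07% to 3.79%, which do not overlap. With TMM scaling the summed levels did overlap, at 33104.3 to 48261.6 CPM in p57KO and 27231.9 to 35877.5 CPM in p57WT. The median member, set against its p57WT mean, lay 0.57, 0.53, 0.13, 0.50 and 0.11 higher on the log2 scale in p57KO 1 to 5. In p57WT 1 to 5 it lay at 0.04, 0.17, -0.07, 0.03 and -0.16. The p57KO libraries were therefore not alike: p57KO 3 and p57KO 5 were lower than p57WT 2. In p57WT 2, the p57WT library with little ribosomal RNA, 44 of 83 members stood above all other p57WT libraries, a count not made over all genes. The ribosomal RNA share moved with these levels, and its part in them was not tested beyond the fits given here.

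**Figure D2:**
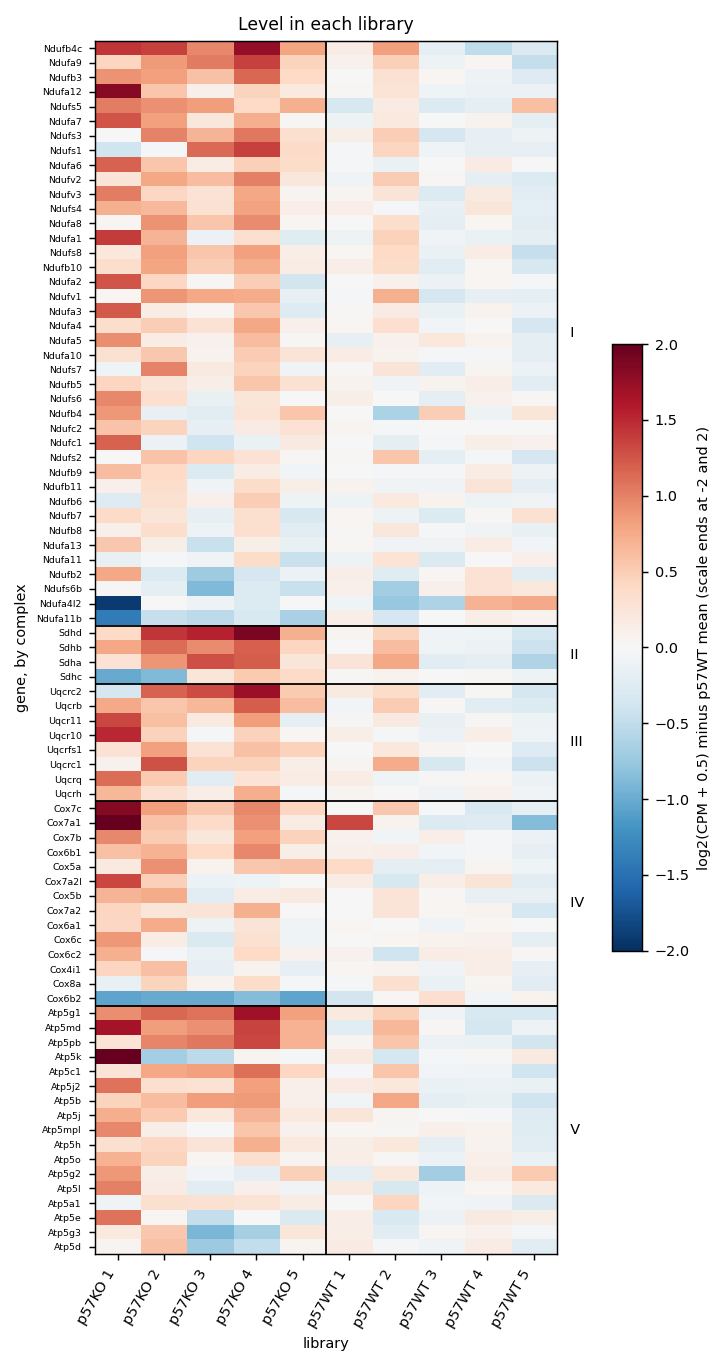
Level of each tested member (rows, by complex) in each library (columns) as log2(CPM + 0.5) minus the p57WT mean, with red higher and blue lower and colors ending at -2 and 2. Red prevails in p57KO 1, 2 and 4, p57KO 3 and 5 are paler, and Cox6b2 is blue in every p57KO library.

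Complex II, the succinate dehydrogenase that also serves the tricarboxylic acid cycle, has 4 subunits, all nuclear. Sdha carries the flavin and Sdhb the iron-sulfur clusters, and Sdhc and Sdhd anchor them in the inner membrane. Sdhd (ENSMUSG00000000171, chromosome 9, 50596357 to 50603812) was at 374, 771, 828, 1050 and 467 CPM in p57KO 1 to 5 and at 297, 388, 270, 270 and 223 CPM in p57WT 1 to 5. The groups overlapped because p57KO 1 was below p57WT 2. Its log2 fold change was 1.27 ± 0.31 (SE) with an edgeR adjusted p of 0.00725, from means of 698 ± 276 and 290 ± 61.1 CPM (SD, n = 5 each). The call was kept when each library was left out, with a highest adjusted p of 0.0232.

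Sdhb was at 577, 728, 648, 775 and 453 CPM in p57KO and at 340, 517, 318, 310 and 249 CPM in p57WT. Only p57WT 2 reached into the p57KO range. The log2 fold change was 0.88 ± 0.26 (SE; edgeR adjusted p 0.0198), and the call was lost without p57WT 3, p57WT 4 or p57WT 5, at adjusted p-values up to 0.0567. Sdha was at 349, 529, 699, 666 and 340 CPM in p57KO and at 341, 489, 247, 250 and 188 CPM in p57WT. The groups overlapped, and the log2 fold change was 0.77 ± 0.32 (SE) with an edgeR adjusted p of 0.0719, which fell below 0.05 without p57KO 1, p57KO 5 or p57WT 2.

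Sdhc, named after its values were seen, did not share this pattern. It was at 129, 142, 309, 375 and 340 CPM in p57KO 1 to 5 and between 241 and 272 CPM in all p57WT libraries. The p57KO libraries of number 607 were thus low and those of number 608 high, on either side of p57WT. Between genotypes the log2 fold change was -0.01 ± 0.31 (SE; edgeR adjusted p 0.986). The fold change was 0.45 without p57KO 1 and p57KO 2. Between number 608 and 607 within p57KO the log2 difference was 1.34 ± 0.28 (SE) with an edgeR adjusted p of 0.0183. Sdhc was the only member called in that contrast, 1.2% of the members against 6.68% of all genes (3.67% higher and 3.01% lower).

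**Figure D3:**
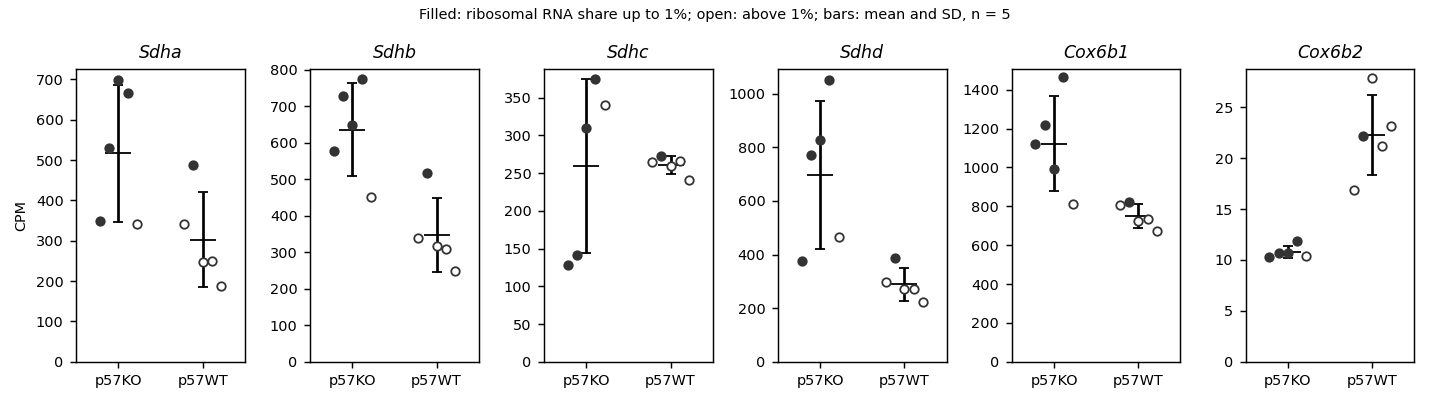
CPM of the complex II genes, Cox6b1 and Cox6b2 in each library, with mean and SD (n = 5 per group); filled points have a ribosomal RNA share up to 1%, open points above it. Sdhc is split within p57KO, and Cox6b2 lies near 10.8 CPM in all p57KO libraries and at 16.8 CPM or more in p57WT.

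Complex IV holds most of the alternative subunit forms. Cox6b2, a form of subunit 6b best known from the testis, was the only member called lower. Cox6b2 (ENSMUSG00000051811, chromosome 7, 4751792 to 4753094) was at 10.3, 10.7, 10.7, 11.8 and 10.4 CPM in p57KO and at 16.8, 22.2, 27.8, 21.2 and 23.1 CPM in p57WT. The groups did not overlap. The log2 fold change was -1.04 ± 0.22 (SE) with an edgeR adjusted p of 0.00379, and it stayed called without each library in turn, with adjusted p-values from 0.00481 to 0.0143. With the ribosomal RNA class as a term it was -1.06 (adjusted p 0.0191). With the label number as a term it was -0.68 (adjusted p 0.355), and within the low and the high ribosomal RNA libraries alone it was -1.11 (0.292) and -1.12 (0.110), edgeR in each case, where 1 genotype had a single library. No stretch of 50 bases of its exons was shared with another gene.

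Cox6b1, the broadly expressed form, was at 1121, 1219, 993, 1465 and 813 CPM in p57KO and between 672 and 824 CPM in p57WT, so Cox6b2 made up a small part of the pair in either group. Its log2 fold change was 0.58 ± 0.24 (SE; edgeR adjusted p 0.0757). The log2 ratio of Cox6b2 to Cox6b1, at a pseudocount of 0.5 CPM, was -6.61 ± 0.26 in p57KO and -5.06 ± 0.33 in p57WT (SD, n = 5 each). The difference was -1.55, with no overlap of the groups, and an exact two-sided permutation test over the libraries gave p = 0.00794, the smallest that 252 splits allow, and 0.0476 adjusted over the 6 pairs tested. Apart from the pseudocount, a ratio within a library does not depend on its scaling. The differences without each library lay from -1.67 to -1.45.

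Cox7c, a subunit with a single nuclear form, was the complex IV gene called higher, at 125, 61.8, 50.5, 68.0 and 47.0 CPM in p57KO and at 34.6, 50.6, 33.9, 28.1 and 30.5 CPM in p57WT. Library p57KO 1 was high and p57WT 2 reached into the p57KO range. The log2 fold change was 0.98 ± 0.29 (SE; edgeR adjusted p 0.019), and 0.68 without p57KO 1. The call was lost without p57WT 4 (adjusted p 0.0543). Cox7b, another broadly expressed subunit, did not overlap between groups, at 703 to 1167 CPM in p57KO and 557 to 658 CPM in p57WT, and had an edgeR adjusted p of 0.0523. Cox4i1, the regulatory subunit in most tissues, had a log2 fold change of 0.18 ± 0.25 (SE; edgeR adjusted p 0.59). The broadly expressed forms Cox6a1, Cox7a2 and Cox8a had log2 fold changes of 0.28, 0.34 and 0.14 and were not called.

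Of the other alternative forms, Cox4i2, the form known from lung and low oxygen, was not tested, since it had between 0 and 15 counts in every library. Cox7a1, the heart and muscle form, stood highest in p57KO 1 (87.6 CPM) and p57WT 1 (46.3 CPM), against 20.02 to 34.3 CPM in the other p57KO and 9.603 to 18.9 CPM in the other p57WT libraries. Its log2 fold change of 0.88 ± 0.48 (SE) was not called (edgeR adjusted p 0.163), and passed at 0.0304 without p57WT 1. Ndufa4l2, the form of Ndufa4 that low oxygen is known to raise, was between 0.688 and 7.11 CPM and had a log2 fold change of -0.50 ± 0.51 (SE; edgeR adjusted p 0.459). The log2 ratios of Cox4i2 to Cox4i1, Cox7a1 to Cox7a2 and Ndufa4l2 to Ndufa4 differed by -0.39, 0.52 and -0.86 between the genotypes, with exact permutation p-values adjusted over the 6 pairs of 0.476, 0.429 and 0.381.

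Complex V carried the largest called increase among protein-coding members apart from Sdhd. Atp5g1, Atp5g2 and Atp5g3 encode the same mature subunit of the membrane ring that protons turn, behind different import signals. Atp5g1 (ENSMUSG00000006057, chromosome 11, 96068852 to 96075670) was at 219, 255, 244, 373 and 203 CPM in p57KO and at 132, 160, 110, 93.2 and 93.3 CPM in p57WT. The groups did not overlap. The log2 fold change was 1.14 ± 0.25 (SE) with an edgeR adjusted p of 0.00406, between 0.98 and 1.28 without each library, and 0.85 (adjusted p 0.0423) with the ribosomal RNA class as a term. With epithelial scaling it was -0.05.

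Atp5g3, the most abundant of the 3 per kilobase of exon, was at 1605, 2035, 742, 880 and 1658 CPM in p57KO and between 1196 and 1539 CPM in p57WT. The p57KO libraries lay on both sides of p57WT, and the log2 fold change was -0.02 ± 0.31 (SE; edgeR adjusted p 0.965). Atp5g2 was at 1.45 to 5.25 CPM in all libraries, and 38.3% of its 50-base exon windows were shared with other genes, so its level is uncertain. The log2 ratio of Atp5g1 to Atp5g3 was -2.35 ± 0.86 in p57KO and -3.60 ± 0.43 in p57WT (SD, n = 5 each), a difference of 1.25 with an exact permutation p of 0.0238, which was 0.0714 adjusted over the 6 pairs. That of Atp5g2 to Atp5g3 differed by 0.36 (0.417 adjusted).

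**Figure D4:**
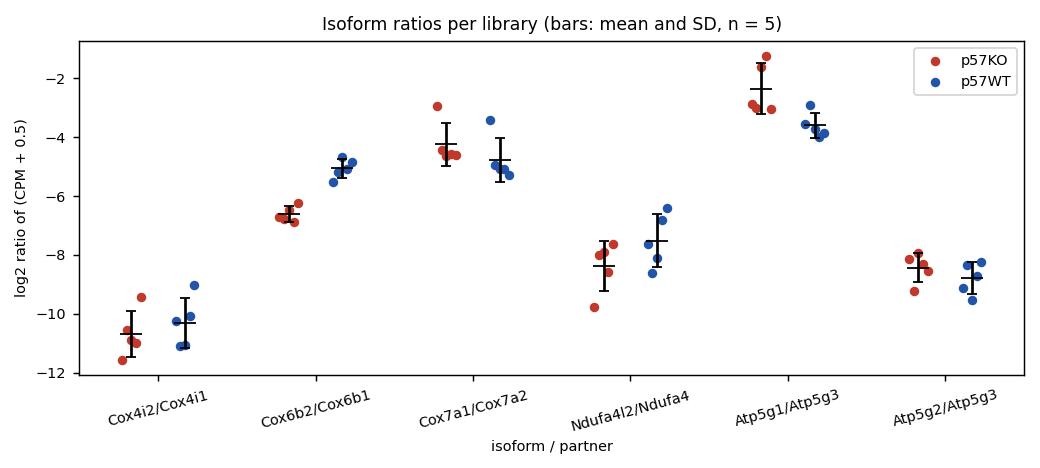
Log2 ratio of (CPM + 0.5) of 6 alternative subunit forms to their partner in each library, p57KO in red and p57WT in blue, with mean and SD (n = 5 each). The genotypes separate fully for Cox6b2/Cox6b1, -6.61 against -5.06, and overlap for the other pairs.

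Atp5md, a small membrane subunit of the ATP synthase, was at 295, 167, 176, 238 and 152 CPM in p57KO and at 79.7, 147, 94.1, 73.0 and 86.3 CPM in p57WT, without overlap. Its log2 fold change was 1.10 ± 0.27 (SE; edgeR adjusted p 0.00734) and the call was kept without each library. Atp5pb, of the peripheral stalk that holds the catalytic head still, had a log2 fold change of 0.87 ± 0.27 (SE; edgeR adjusted p 0.0229), and was lost without p57KO 4, p57WT 3, p57WT 4 or p57WT 5. The 5 genes of the catalytic head and central stalk had none called by edgeR (1 at an unadjusted p below 0.05) and a median log2 fold change of 0.18. Among them Atp5a1, the alpha subunit of the head, was at 1426 ± 155 and 1258 ± 247 CPM (SD, n = 5 each; edgeR adjusted p 0.589).

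In complex I, the NADH dehydrogenase with the most subunits, the calls fell on 3 accessory subunits and 1 pseudogene. Ndufb3 was at 232, 220, 187, 277 and 163 CPM in p57KO and at 125, 153, 127, 116 and 104 CPM in p57WT. The groups did not overlap, and the log2 fold change was 0.79 ± 0.21 (SE; edgeR adjusted p 0.013), called without each library as well. Ndufa9 was at 349 ± 98.7 and 195 ± 46.9 CPM (SD, n = 5 each), a log2 fold change of 0.84 ± 0.26 (SE; edgeR adjusted p 0.0235) that was lost without p57KO 3, p57KO 4, p57WT 3, p57WT 4 or p57WT 5. Ndufs5, named after its values were seen, had 0.75 ± 0.23 (SE; edgeR adjusted p 0.0238) and was lost without p57WT 1, p57WT 3 or p57WT 4. The largest fold change was that of the pseudogene Ndufb4c, 1.40 ± 0.42 (SE; edgeR adjusted p 0.02), at 4.93 and 1.83 CPM, lost without p57KO 4, p57WT 3, p57WT 4 or p57WT 5. All of its exon windows are shared with other genes, so its counts are uncertain.

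The 7 nuclear core subunits of complex I, which carry the flavin and the iron-sulfur clusters, had none called by edgeR (2 at an unadjusted p below 0.05) and a median log2 fold change of 0.51. Ndufs1, the largest of them, was at 113, 146, 330, 387 and 195 CPM in p57KO and between 134 and 202 CPM in p57WT. Libraries p57KO 3 and p57KO 4 were above all p57WT, and p57KO 1 below them. The log2 fold change was 0.63 ± 0.33 (SE; edgeR adjusted p 0.147), and it was called, at 0.0413, without p57KO 1. Whether core and accessory subunits differed was not tested.

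In complex III, the cytochrome bc1 complex, Uqcrc2, a core protein, was at 135, 390, 425, 569 and 247 CPM in p57KO and at 195, 222, 146, 174 and 135 CPM in p57WT. Library p57KO 1 lay at the bottom of the p57WT range. The log2 fold change was 1.02 ± 0.34 (SE; edgeR adjusted p 0.032), and the call was lost in 7 of the 10 fits that left out a library, those without p57KO 2, p57KO 3, p57KO 4, p57WT 1, p57WT 3, p57WT 4 or p57WT 5. Uqcrb, a small ubiquinone-binding subunit, did not overlap, at 454 to 715 CPM against 258 to 442 CPM, with a log2 fold change of 0.75 ± 0.24 (SE; edgeR adjusted p 0.0264) that was lost without p57KO 4, p57WT 1, p57WT 3, p57WT 4 or p57WT 5. The other core protein, Uqcrc1, had 0.48 ± 0.31 (SE; edgeR adjusted p 0.236). Uqcrfs1, the Rieske iron-sulfur protein, named after its values were seen, did not overlap and had an edgeR adjusted p of 0.0825.

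Levels per kilobase of exon ranged over the members from 0.543 CPM per kilobase for Cox4i2 to 2078 for Cox6a1, as means of all libraries, followed by Uqcr11 at 2061. In some libraries the deviation of a member went with its exon length. In p57KO 1 the difference from the other p57KO libraries had a Spearman rho of -0.40 with exon length over 83 members, with medians of 0.38 (log2) for the 41 shorter and -0.13 for the 42 longer genes. In p57WT 2 rho was 0.38, with medians of 0.08 and 0.34. It was 0.41 in p57KO 3 and -0.43 in p57WT 5, 0.21 in p57KO 4 and -0.22 in p57WT 4, and between -0.06 and 0.10 in p57KO 2, p57KO 5, p57WT 1 and p57WT 3. The rho of the fold change between genotypes with length was 0.13. These are descriptions over genes of the same libraries. In p57KO 1, 36 of 83 members were the highest of the p57KO libraries and 17 the lowest. These counts were not made over all genes, so whether they are particular to the members was not tested.

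**Figure D5:**
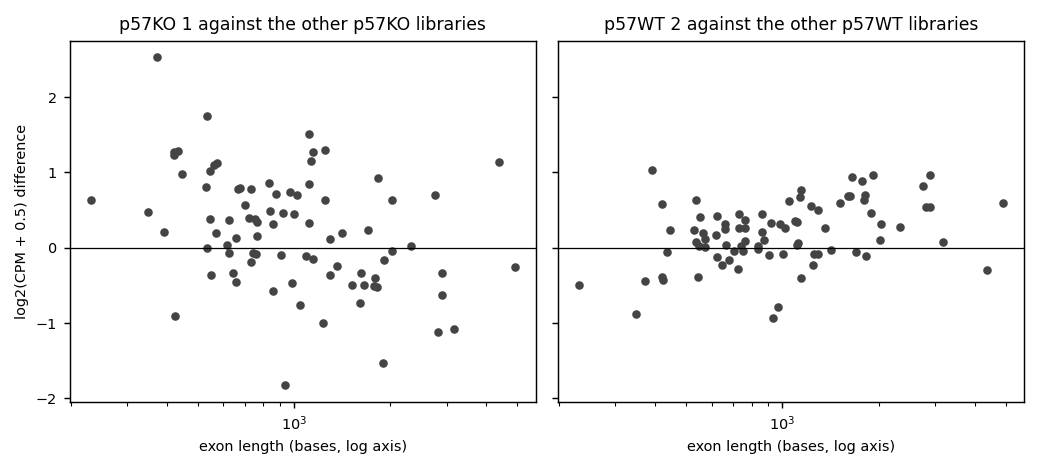
Difference in log2(CPM + 0.5) of each member (y axis) between 1 library and the mean of the others of its genotype, against exon length in bases (log x axis). Shorter genes lie higher in p57KO 1 (rho -0.40) and longer genes lie higher in p57WT 2 (rho 0.38).

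Of the tested members, 20 of 83 share at least 20% of their 50-base exon windows with other annotated genes, so that reads could be split or lost in counting. Among the 12 called higher, 6 are of this kind: Ndufb4c (100%), Uqcrb (43.4%), Atp5pb (37.6%), Uqcrc2 (24.2%), Cox7c (23.0%) and Ndufs5 (21.7%). Over the 63 other members, a subset chosen after the data were seen, 6 were called higher (9.52%) and 1 lower, with a median log2 fold change of 0.43. Among all genes, 19.3% were called higher and 17.2% lower.

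Genes that build and serve the respiratory chain were counted from lists of known function. Of 52 tested assembly factors, 18 were higher and 0 lower by edgeR, or 34.6% against the 19.3% of all genes that were higher, and 21 were higher and 0 lower by DESeq2. The median log2 fold change was 0.62, and 29 of 52 had an unadjusted p below 0.05 (55.8% against 47.4% of all genes). Coa4, a cytochrome c oxidase assembly factor, was at 57.7 ± 10.1 and 16.96 ± 3.54 CPM (SD, n = 5 each), a log2 fold change of 1.76 ± 0.23 (SE; edgeR adjusted p 0.000343). Cox19, which takes part in copper delivery to complex IV, had 1.21, Tmem126a 1.15 and Coa3 0.96, all called and without overlap between the groups. Of 77 genes for mitochondrial ribosome proteins, which translate the mitochondrially encoded subunits, 32 were higher and 0 lower by edgeR (41.6% higher against 19.3%), and 40 and 0 by DESeq2, where 20.9% of all genes were higher. The median was 0.56, and 41 had an unadjusted p below 0.05 (53.2% against 47.4%). The smallest p-values were those of Mrps33 (1.45), Mrpl40 (1.24), Mrpl50 (1.29) and Mrpl32 (0.95). Whether these lists differed from the subunit genes was not tested.

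Among 24 genes of mitochondrial import and carriers, 8 were higher and 1 lower (median 0.54). The share called, 37.5%, was near the 36.5% of all genes, with 33.3% against 19.3% in the upward direction. The lower gene was Slc25a4 and the most significant higher gene was Slc25a5, the muscle and the growth-related form of the carrier that exchanges ADP for the ATP made by complex V. Slc25a4 averaged 402 ± 185 CPM in p57KO against 1104 ± 343 CPM in p57WT (SD, n = 5 each), a log2 fold change of -1.46 ± 0.37 (SE; edgeR adjusted p 0.0086). Slc25a5 was at 1510 ± 582 and 418 ± 136 CPM, a log2 fold change of 1.85 ± 0.34 (SE; edgeR adjusted p 0.0018). Neither overlapped between groups, and both calls were kept without each library. Smooth muscle markers moved with this exchange, all 12 lower in p57KO with a median log2 fold change of -2.35, and epithelial markers 15 of 18 higher with a median of 1.19; their part in it was not tested. Tomm5, of the outer membrane import pore, had 1.07 and Vdac3, an outer membrane channel, 0.99, both called.

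Regulators of mitochondrial biogenesis were mixed, with 3 of 22 higher and 2 lower (median 0.04), a called share of 22.7% against 36.5% of all genes. Tfam, which packs mitochondrial DNA and takes part in its transcription, rose by 0.90 ± 0.21 (SE; edgeR adjusted p 0.00631), with Mterf2 at 1.30 and Tfb1m at 0.99. Pprc1, a coactivator of the PGC-1 family, was at 17.1 ± 7.71 and 43.8 ± 6.75 CPM (SD, n = 5 each), with a log2 fold change of -1.35 ± 0.31 (SE; edgeR adjusted p 0.0051). Polg, the mitochondrial DNA polymerase, named after its values were seen, had -0.69 (edgeR adjusted p 0.0404), a call that was lost in 8 of the 10 fits that left out a library.

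Of 18 genes of the tricarboxylic acid cycle and pyruvate dehydrogenase, which supply NADH and succinate, 4 were higher and 0 lower by edgeR, and 5 and 0 by DESeq2 (median 0.38). The 22.2% higher by edgeR was near the 19.3% of all genes, and 6 had an unadjusted p below 0.05 (33.3% against 47.4%). The 4 were Suclg2 (0.88), Suclg1 (0.69), Sucla2 (0.67) and Idh3a (0.82), of which the Suclg1, Suclg2 and Sucla2 products form succinyl-CoA ligase. None of these calls was kept without p57WT 3, p57WT 4 or p57WT 5. Of 16 antioxidant, chaperone and uncoupling genes 5 were higher and 0 lower by edgeR, and 6 and 0 by DESeq2 (median 0.67). The share called was 31.2% against 36.5% of all genes, all of it upward, where the background was 19.3%, and 8 had an unadjusted p below 0.05 (50% against 47.4%). Those higher by edgeR included the chaperonin genes Hspe1 (1.23) and Hspd1 (0.94) and the glutathione peroxidases Gpx1 (1.45) and Gpx4 (1.03). Another 5 tested genes, for subunits of the chain or proteins that act with it, lie outside the symbol rule. Of these, Cycs, the electron carrier cytochrome c, was called higher at 0.77 ± 0.25 (SE, edgeR adjusted p 0.0314). This is 20% of them against 19.3% of all genes. Atpif1, Ndufab1 and Ndufb1-ps at 0.67, 0.45 and 0.58 were not called.

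Within label number 607, which alone holds both genotypes, p57KO 1 and p57KO 2 were set against p57WT 1, whose variation was assumed to be that of the other groups. It is the same comparison as the fit with the label number as a term, not a further result. None of the 83 members was called there by edgeR (7 at an unadjusted p below 0.05), where 6.04% of all genes were (1.1% higher and 4.94% lower), and their median log2 fold change was 0.53 against 0.15 for all genes. Between numbers 740 and 607 in p57WT edgeR called 0 genes (0%), and 1 member had an unadjusted p below 0.05. In p57KO, numbers 608 and 607 differed by a median of -0.24 over the members.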

How the data were processed

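RNA sequencing counts were analysed for 10 libraries, 5 per genotype. The authors deposited whole-number counts of reads per gene, a signal per library that is the count divided by a size factor, and their comparison as log2 fold changes with standard errors, a Wald score and p-values, per the file headers. Build mm10 (GRCm38) and the tools HTSeq 1.0, DESeq2 1.22.2, STAR 2.6.1d and Cufflinks 2.2.1, with Trim Galore and FastQC, are listed in the submitters' processing notes. No strand setting is given there.

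The counts were tested with edgeR 4.0.16 in R 4.3.3 (TMM scaling, its expression filter, which removed 3869 genes, quasi-likelihood test, genotype as the only term), and a gene was called at an adjusted p below 0.05. A floor of 3 counts, for counting error only, corresponded to 0.105 to 0.392 CPM. Alternatives used DESeq2 1.42.0, limma 3.58.1, other scalings, added terms and left-out libraries, and the procedure was tested on simulated data. No 2 libraries of a genotype agreed within sampling noise. Of the gene identifiers, 20558 matched GENCODE M21, which gave coordinates and exon lengths.

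The members and lists were chosen with earlier results of these data known. Values are given for the alternative subunit forms, 1 reference subunit per complex, up to 3 called members per complex in each direction, the members of each list ranked highest by p (at most 4), Cdkn1c and Hopx. Genes outside this rule are said to be so.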

Additional observations from a re-analysis of the deposited data

Results flagged for a closer look

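In each group of 5 libraries, the highest and the lowest value of each member and each isoform ratio was examined for a gap to its nearest neighbour of more than 0.71 of the whole range. Of 180 groups, 25 had such a gap, where chance gives about 1 in 20. The values are CPM. Library p57KO 1 stood above the other p57KO libraries for Ndufa12 (715), Ndufc1 (626), Ndufb2 (199), Uqcr10 (1879), Cox7c (125), Cox7a1 (87.6), Atp5k (1770), Atp5l (27.1) and Atp5e (719), and below them for Ndufa4l2 (0.688). Library p57WT 2 stood above the other p57WT libraries for Ndufs1 (202), Ndufa1 (391), Ndufv1 (301), Cox7c (50.6), Atp5md (147) and Atp5b (3595), and below them for Ndufs6b (20.5) and Cox6c2 (62.9). In p57KO 4, Uqcrb (715) and Cox6b2 (11.8) stood high, in p57KO 2 Uqcrc1 (1054), and in p57WT 1 Cox7a1 (46.3). In p57WT 5, Atp5mpl (529) stood low. The log2 ratio of Cox7a1 to Cox7a2 stood high in p57KO 1, at -2.95 against -4.64 to -4.45 in the others, and in p57WT 1, at -3.43 against -5.28 to -4.95. Of the values far from their group, 11 came from p57KO 1 and 8 from p57WT 2, counting that ratio. Atp5k, a small membrane subunit of complex V, had the widest gap, at 1770 CPM in p57KO 1 against 235 to 389 CPM in the other p57KO libraries.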

How the results depend on the processing

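Of the counts, the 12 members higher in p57KO became 27 with DESeq2 (32.1% against 20.9% of all genes, where edgeR gave 14.5% against 19.3%). They became 0 with epithelial scaling (against 3.11% of all genes) and 1 with the ribosomal RNA class as a term (1.2% against 7.22%). Without members that share sequence there were 6 (9.52% against 19.3%). The fits with the label number as a term and within each ribosomal RNA class leave 1 library in a genotype, so their calls are not counted here. Without each library in turn the count ran from 4 to 21, the number called lower was 1 in each fit, and the median ran from 0.32 to 0.51. The 1 lower became 42 of 83 with epithelial scaling, where 56.3% of all genes were lower. The median became -0.83 with epithelial scaling and 0.12 in the high ribosomal RNA libraries. Over all genes tested, 519 were higher and 9415 lower with epithelial scaling, against 3226 and 2881 with TMM.

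The replicate numbers do not pair the libraries: same-numbered deviations correlated between -0.15 and 0.23 and only 1 of 5 correlated best with its own number. With them as a replicate block, 11 members were higher (13.3% against 17.1% of all genes) and 1 lower, with a median of 0.36. Under the replicate block the calls of Uqcrc2 and Uqcrb were lost, and Cox7a1 gained a call (log2 fold change 0.87, adjusted p 0.0155). Total counts gave 18 higher (21.7% against 21.2% of all genes), no filter 13 (15.5% against 17.2%) and limma voom 13 (15.7% against 18.05%).

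Directions reversed as follows, in log2, and the cause was not tested. With epithelial scaling, which lowered the median of all genes to -1.16, the fold changes were -0.24 for Cox7a1, -0.054 for Atp5g1, -1.05 for Atp5g2, -1.08 for Cox4i1, -0.99 for Cox6a1, -0.65 for Cox6b1, -0.87 for Cox7a2, -0.61 for Cox7b, -1.08 for Cox8a, -0.81 for Ndufa4, -0.53 for Ndufs1 and -0.39 for Sdha. Further values with that scaling were -0.76 for Uqcrc1, -1.02 for Atp5a1, -0.34 for Ndufa9, -0.44 for Ndufb3, -0.34 for Sdhb, -0.14 for Uqcrc2, -0.46 for Uqcrb, -0.31 for Cox7c, -0.18 for Atp5md, -0.31 for Atp5pb, -0.58 for Ndufs5 and -0.72 for Uqcrfs1. It also gave -0.17 for Hopx, -0.22 for Hspd1, -0.18 for Gpx4, -0.086 for Tmem126a, -0.23 for Coa3, -0.30 for Tfam, -0.13 for Tfb1m, -0.14 for Tomm5, -0.20 for Vdac3, -0.25 for Mrpl32, -0.48 for Cycs and -0.56 for Atpif1. Under it there were also -0.77 for Ndufab1, -0.74 for Ndufb1-ps, -0.29 for Suclg2, -0.52 for Suclg1, -0.57 for Sucla2 and -0.40 for Idh3a. The high ribosomal RNA libraries gave -0.12 for Cox7a1, -0.17 for Cox4i1, -0.080 for Cox6a1, 0.17 for Atp5g3, 0.39 for Sdhc and -0.33 for Mterf2. The ribosomal RNA class as a term gave 0.051 for Ndufa4l2, -0.044 for Cox8a, 0.16 for Atp5g3 and 0.11 for Sdhc. The low ribosomal RNA libraries gave 0.35 for Ndufa4l2, -0.074 for Atp5g2, -0.21 for Cox8a, 0.032 for Atp5g3, -0.21 for Uqcrc1 and -0.30 for Atp5a1. The fit without p57KO 1 and p57KO 2 gave -0.028 for Cox4i1 and 0.45 for Sdhc. Total counts gave 0.032 for Atp5g3 and 0.078 for Sdhc. The label number as a term gave 0.24 for Atp5g3 and -0.18 for Ndufs1. Without p57KO 3 there was 0.15 for Atp5g3. Without p57KO 4 there was 0.12 for Atp5g3. Without p57WT 1 there was 0.017 for Atp5g3 and 0.0018 for Sdhc. DESeq2 gave 0.040 for Sdhc. No filter gave 0.057 for Sdhc. Without p57KO 1 there was 0.17 for Sdhc. Without p57KO 2 there was 0.19 for Sdhc. Without p57WT 2 there was 0.014 for Sdhc.

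Depth limits the low members: Cox4i2, Ndufa4l2 and Atp5g2 had few counts. Label number and ribosomal RNA share cannot be told apart from genotype in most libraries. The subsets by ribosomal RNA and by shared sequence were chosen after seeing the data.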
